A study of Homo sapiens with 6 samples.

Results

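The genes described here are the axon guidance ligands and receptors of SKNMC cells, an established Ewing sarcoma line with the EWS-FLI1 fusion. They were taken by name from the deposited gene counts: every row that begins with EPHA, EPHB, EFNA, EFNB, SEMA, PLXN, ROBO or UNC5, together with the SLIT and netrin ligands, DCC, NEO1, NRP1 and NRP2. This gave 78 of 22604 rows, of which 36 are ligands and 35 are receptors. Another 5 are antisense transcripts that carry a guidance gene's name, and 2, UNC50 and UNC5CL, share the UNC5 letters without being netrin receptors.

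Axon guidance cues are secreted or membrane-bound ligands that steer growing axons and migrating cells by attraction or repulsion, through receptors that act on the actin cytoskeleton. Ephrins stay on the cell surface and signal to Eph receptor tyrosine kinases on a neighbouring cell, and ephrin-B ligands also signal back into their own cell. Semaphorins act through plexins, SLIT proteins through ROBO receptors, and netrins through DCC, neogenin (NEO1) and the UNC5 receptors. Many of these genes are also used outside the nervous system in mesenchymal tissue, vessels and tumours.

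RNA-seq was done on total RNA of 3 groups of SKNMC cells with 2 libraries each. Cells carried an NFIB deletion expression vector (V5-tagged NFIB without its C-terminal intrinsically disordered region, here NFIB ΔIDR), an NFIB wildtype expression vector (V5-tagged full-length protein, here NFIB WT) or an empty expression vector (EV). NFIB is a DNA-binding transcription factor of the nuclear factor I family, and the comparison asks which transcripts respond to it and whether its disordered region is needed. According to the methods of the study, vectors were delivered by lentivirus and infected cells were selected with puromycin for 7 days. Each group is therefore an infected population of a single cell line, in which endogenous NFIB remained.

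Library totals ranged from 6664231 to 8465572 counts. Levels are given as CPM (counts scaled to library size, with TMM factors), and 1 CPM stood for about 6.66 counts in the smallest library. NFIB itself was at 2227 and 2332 CPM with NFIB ΔIDR, 969 and 1051 CPM with NFIB WT, and 176 and 145 CPM with EV, which follows the labels. These counts hold endogenous and vector transcripts together, and since NFIB was higher with NFIB ΔIDR than with NFIB WT, the form of the protein and the level of its transcript cannot be told apart between the constructs. The pairs of libraries were not equally close. The SD of the log2 difference between libraries of a group was 0.28 for NFIB ΔIDR, 0.38 for NFIB WT and 0.28 for EV. A chi-square of their counts, per degree of freedom, was 1.63 for NFIB ΔIDR, 9.37 for NFIB WT and 1.84 for EV. By both measures the NFIB WT libraries were furthest apart. Of 8 markers of Ewing sarcoma fixed for a check of identity, 7 were among the rows used here, each had at least 141 counts in every library, and they summed to between 1269 and 1332 CPM. Of these 7, LIPI passed as higher with NFIB WT than with EV (adjusted p = 0.0376) and as lower with NFIB ΔIDR than with NFIB WT (adjusted p = 0.0172), and STEAP1 passed as higher with NFIB ΔIDR than with NFIB WT (adjusted p = 0.0258). Of the other cell type lists, 7 fibroblast markers summed to 279 to 287 CPM with NFIB ΔIDR, 428 to 437 CPM with NFIB WT and 327 to 328 CPM with EV. None of these 7 was at 0, and 2 (DCN and FAP) passed as higher with NFIB WT than with EV. The list did not move in a single direction between the constructs, where 4 (DCN, LUM, COL1A2 and FAP) were lower with NFIB ΔIDR than with NFIB WT and 2 were higher, namely PDGFRA (3.86-fold, adjusted p = 0.00576) and COL1A1 (2.11-fold, adjusted p = 0.0156). The part of these marker genes in the changes below was not tested. Markers of endothelium stayed at 1.80 to 3.75 CPM in all libraries, those of glia and Schwann cells at 11.2 to 20.3 CPM (nearly all from S100B) and those of neurons at 39.2 to 46.2 CPM, with RBFOX3, NEFL and STMN2 at no more than 0.300 CPM.

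SKNMC cells expressed an ephrin, an Eph receptor and a class 3 semaphorin at the top of the set. Divided by gene length, the highest member by the mean of all libraries was EFNB1, the ephrin-B1 ligand, with a mean of 27.1 CPM per kb with NFIB ΔIDR, 52.9 CPM per kb with NFIB WT and 32.7 CPM per kb with EV. EPHA3, an ephrin-A receptor, followed at 30.0 CPM per kb with NFIB ΔIDR, 29.9 with NFIB WT and 33.5 with EV. SEMA3C, a secreted semaphorin, stood at 27.6 CPM per kb with NFIB ΔIDR, 19.4 with NFIB WT and 25.7 with EV. EPHA4, which binds ephrins of both classes, stood at 21.0 CPM per kb with NFIB ΔIDR, 17.6 with NFIB WT and 23.6 with EV. Below them lay ROBO1 (14.7 CPM per kb over all libraries), EPHB4 (14.6), the semaphorin SEMA5B (14.5), the plexins PLXND1 (12.8) and PLXNB2 (12.8), the netrin-G ligand NTNG1 (12.0) and PLXNA1 (9.78). Some genes that changed were low, and EPHB2 held 0.165 CPM per kb with NFIB ΔIDR, 0.796 with NFIB WT and 0.260 with EV, which placed it at rank 45 of 71 by mean level.

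**Figure D1:**
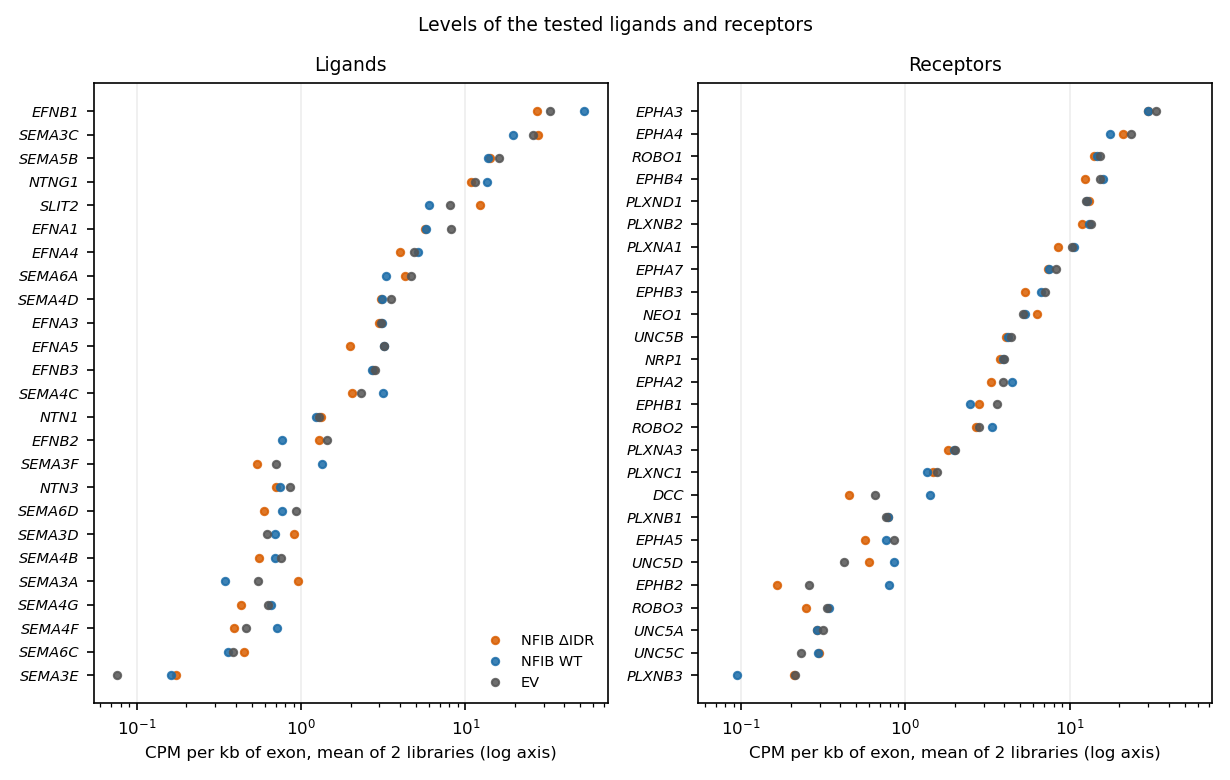
Mean level of each tested ligand (left) and receptor (right) as CPM per kb of exon on a log axis, with a point for each group (NFIB ΔIDR, NFIB WT and EV, each the mean of 2 libraries). By the mean over all libraries EFNB1 tops the ligands at 27.1 CPM per kb with NFIB ΔIDR (where SEMA3C has 27.6), 52.9 with NFIB WT and 32.7 with EV, and EPHA3 the receptors at 30.0 with NFIB ΔIDR, 29.9 with NFIB WT and 33.5 with EV.

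Few guidance genes changed in any comparison. The expression filter kept 54 of the 78 rows (25 ligands, 26 receptors, 2 antisense transcripts and UNC50) among 13501 genes tested, and adjusted p values and log2 fold changes (log2FC) below are from edgeR's quasi-likelihood test over all of these genes. With NFIB WT against EV, EPHB2, EFNB1 and DCC rose, which is 3 of the 54 (5.56%) next to 0.452% of all genes tested. No member was lower at an adjusted p under 0.05, next to 0.163% of all genes. There were 8 lower members at an unadjusted p under 0.05, next to 6.42% of all genes, and DESeq2 also gave 0. With NFIB ΔIDR against EV, SLIT2 rose (1 of 54, next to 0.296% of all genes). No member was lower at the same threshold, next to 0.356% of all genes, with 10 lower at an unadjusted p under 0.05 (next to 7.42% of all genes) and 0 in DESeq2. An adjusted p from DESeq2 existed for 50 of the 78 rows with NFIB WT against EV and 35 with NFIB ΔIDR against EV. Between the constructs it existed for 51. Statements here that DESeq2 made no call cover only those rows. Between the constructs, SLIT2, SEMA3A and SEMA3C were higher with NFIB ΔIDR than with NFIB WT (3 of 54, 5.56%, next to 5.19% of all genes), a share near the background. EPHB2, EFNB1, DCC, SEMA3F and EFNA5 were lower with NFIB ΔIDR (5 of 54, 9.26%, next to 5.52%). The members were chosen with results of these data known, and both comparisons with EV share the EV libraries. In bulk RNA, fewer cells that express a gene and less RNA per cell cannot be told apart.

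**Figure D2:**
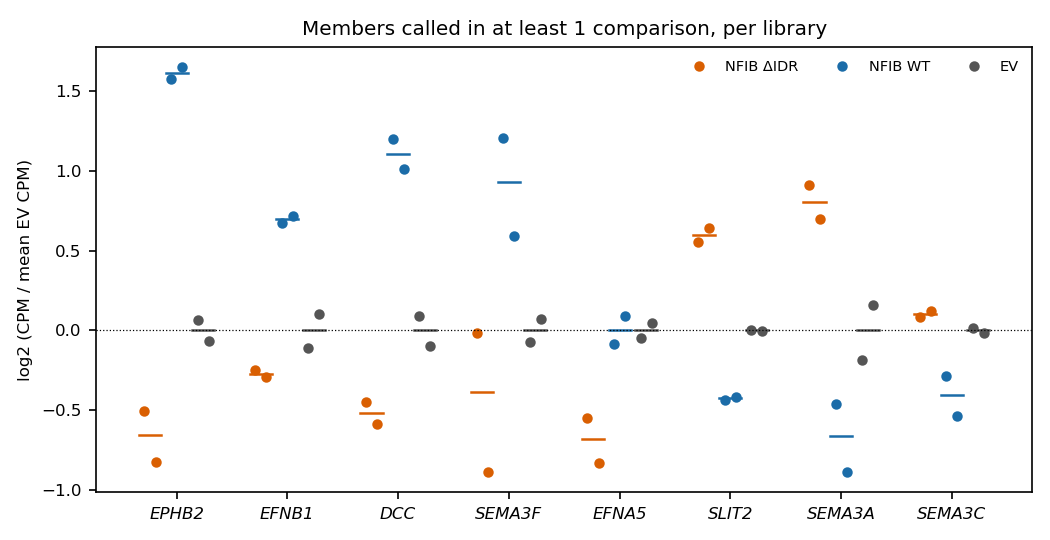
CPM of each library over the EV mean, on a log2 scale, for the 8 members called in at least 1 comparison, with a point for each library and a bar at each group mean (NFIB ΔIDR, NFIB WT and EV from left to right for each gene). Libraries of NFIB WT lie highest for EPHB2, EFNB1, DCC and SEMA3F, and those of NFIB ΔIDR lie highest for SLIT2, SEMA3A and SEMA3C.

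At the looser thresholds that the methods of the study name, a change of 1.5-fold or more with an unadjusted p under 0.05, 5 members were higher with NFIB WT than with EV (9.26%, next to 2.13% of all genes) and 2 were lower (3.70%, next to 1.75%). The additions were SEMA3F and UNC5D as higher, and EFNB2 and the transcript SEMA6A-AS1 as lower. With NFIB ΔIDR against EV, SLIT2 and SEMA3A were higher (2 of 54, next to 3.09% of all genes) and EFNA5 and SEMA6D were lower (2 of 54, next to 1.68%). Between the constructs, EFNB2, SEMA3A and SLIT2 were higher with NFIB ΔIDR (3 of 54, next to 5.69%) and 7 were lower (13.0%, next to 4.3%), namely the 5 named above, SEMA4C and SEMA4F.

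Fold changes of the set lay mostly below 0 with NFIB ΔIDR. Of the 54 members tested, 15 (27.8%) had a log2 fold change above 0 against EV, next to 50.3% of all genes tested, and their median was -0.16, next to 0.00 over all genes. The median was -0.18 for the 25 ligands and -0.16 for the 26 receptors. With NFIB WT, 23 of 54 (42.6%) were above 0, next to 50.8% of all genes, and the median was -0.04. Between the constructs, 22 of 54 (40.7%) were above 0, next to 50.1% of all genes, with a median of -0.05. Most of these fold changes did not pass the test singly, as the plot of fold changes by family shows. With NFIB ΔIDR against EV, none of those below 0 passed.

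**Figure D3:**
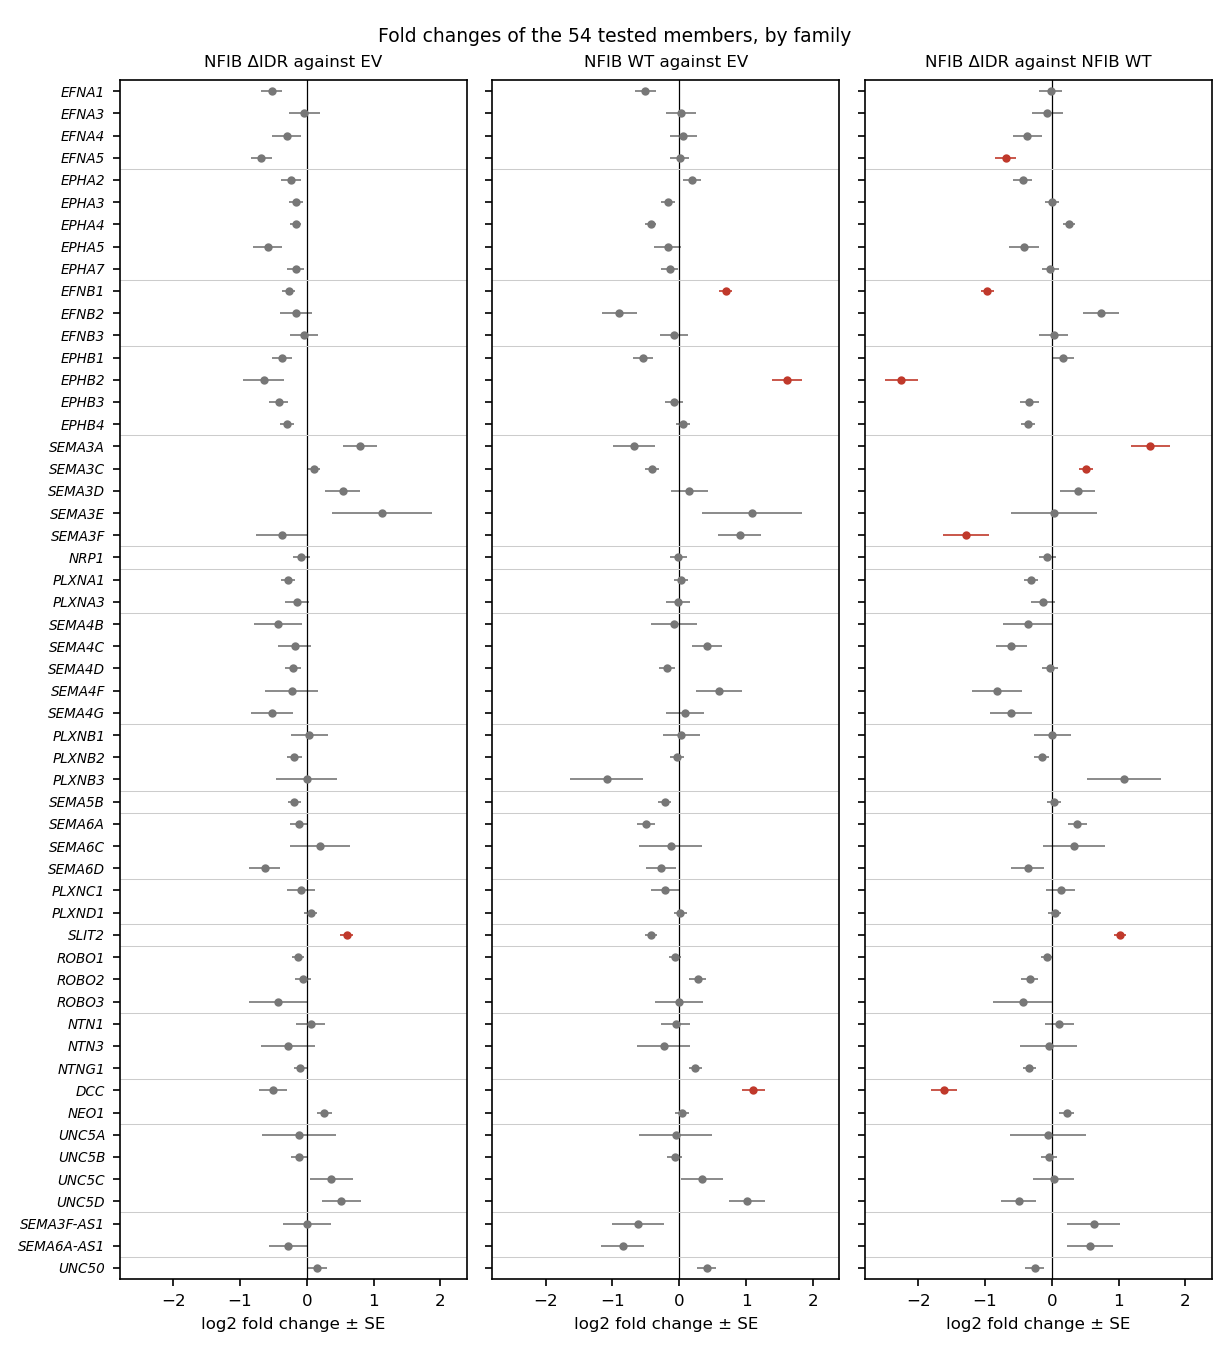
Log2 fold change with its SE for the 54 tested members, ordered by family, with NFIB ΔIDR against EV (left), NFIB WT against EV (middle) and NFIB ΔIDR against NFIB WT (right). Points in red passed an adjusted p under 0.05, namely SLIT2 on the left, EFNB1, EPHB2 and DCC in the middle, and 8 members on the right.

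Among ephrin-B ligands and their receptors, a ligand and a receptor rose together with NFIB WT. EPHB2, a receptor tyrosine kinase for ephrin-B ligands, had 2.03 and 1.62 CPM with NFIB ΔIDR, 8.55 and 9.02 CPM with NFIB WT, and 3.003 and 2.75 CPM with EV. The libraries of NFIB WT were far above the others, those of NFIB ΔIDR were lowest, and no groups overlapped. These levels rest on 15 and 11 counts with NFIB ΔIDR, 57 and 70 with NFIB WT, and 22 and 23 with EV. EPHB2 was 3.05-fold higher with NFIB WT than with EV (log2FC 1.61, SE 0.22, adjusted p = 0.0128). It was lower with NFIB ΔIDR than with NFIB WT (log2FC -2.25, SE 0.25, adjusted p = 0.000969), and its log2 fold change with NFIB ΔIDR against EV was -0.64 (SE 0.31, adjusted p = 0.369).

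EFNB1, a transmembrane ligand that binds EPHB2, had 91.6 and 88.9 CPM with NFIB ΔIDR, 174 and 179 CPM with NFIB WT, and 101 and 117 CPM with EV. All 3 groups were separate, with NFIB WT highest. EFNB1 was 1.62-fold higher with NFIB WT than with EV (log2FC 0.69, SE 0.10, adjusted p = 0.0128). It was lower with NFIB ΔIDR than with NFIB WT (log2FC -0.96, SE 0.10, adjusted p = 0.000577), and the log2 fold change of NFIB ΔIDR against EV was -0.27 (SE 0.10, adjusted p = 0.230).

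The other ephrin-B ligands did not share this pattern. EFNB2, known as an arterial marker and as the ligand of EPHB4, had 5.68 and 5.61 CPM with NFIB ΔIDR, 2.55 and 4.12 CPM with NFIB WT, and 6.69 and 5.97 CPM with EV. The NFIB WT libraries were the lowest, opposite to EFNB1, but the difference from EV did not pass (log2FC -0.90, SE 0.26, adjusted p = 0.176). EFNB3 had 7.08 to 10.3 CPM across the 6 libraries, with overlapping groups. Of the receptors, EPHB1 had 14.1 and 12.1 CPM with NFIB ΔIDR, 10.6 and 12.5 CPM with NFIB WT, and 17.5 and 16.4 CPM with EV, so both constructs lay below EV (adjusted p = 0.283 with NFIB ΔIDR and 0.170 with NFIB WT). EPHB4, a receptor of venous endothelium, was the most abundant EphB and had 56.0 and 52.1 CPM with NFIB ΔIDR, 66.9 and 71.9 CPM with NFIB WT, and 62.9 and 70.3 CPM with EV. Its log2 fold change of NFIB ΔIDR against NFIB WT was -0.36 (SE 0.10, adjusted p = 0.0519). EPHB3 had 21.5 and 23.5 CPM with NFIB ΔIDR, 25.8 and 30.8 CPM with NFIB WT, and 27.3 and 32.6 CPM with EV, with NFIB ΔIDR lowest. EPHB6, a receptor without kinase activity, had at most 5 counts in a library and was not tested. Summed over the 5 EphB genes, NFIB ΔIDR had 93.6 and 89.5 CPM, NFIB WT had 113 and 125 CPM, and EV had 111 and 122 CPM.

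**Figure D4:**
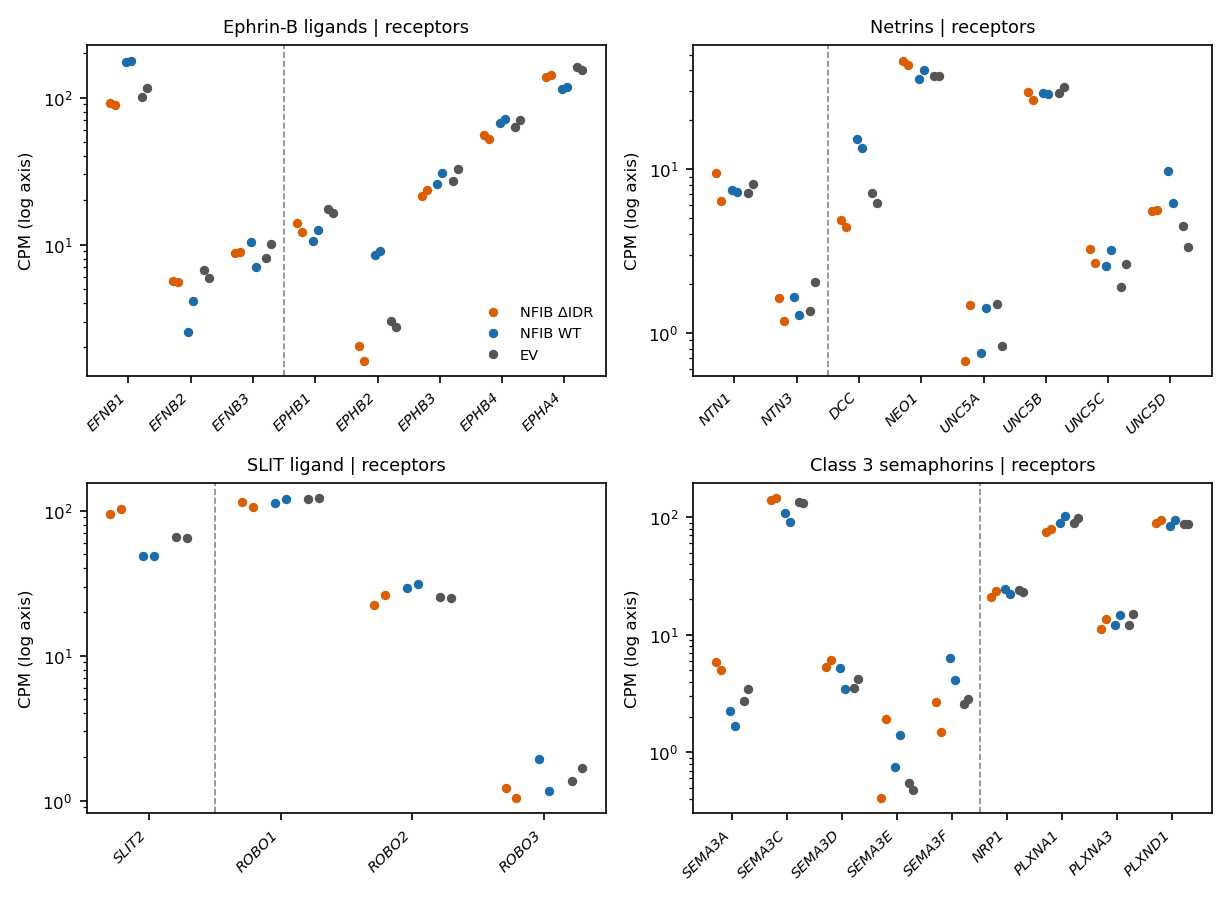
CPM on a log axis for ligands (left of the dashed line in each panel) and receptors (right of it) of the ephrin-B, netrin, SLIT and class 3 semaphorin systems, with a point for each library (NFIB ΔIDR, NFIB WT and EV from left to right). EFNB1, EPHB2 and DCC are highest with NFIB WT (for EPHB2, 8.55 and 9.02 CPM), SLIT2 is highest with NFIB ΔIDR (95.8 and 102 CPM), and ROBO1 lies between 107 and 122 CPM in all libraries.

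For the 4 genes that changed against EV, the promoter sequences are printed here because these genes moved with a transcription factor whose recognition motif is known. NFI proteins bind a palindrome with arms TTGGC and GCCAA. Each sequence runs from 250 bases before to 50 bases after the transcription start in RefSeq on GRCh38.p14, at chr1:22710588-22710887 for EPHB2, chrX:68828771-68829070 for EFNB1, chr18:52339947-52340246 for DCC and chr4:20251655-20251954 for SLIT2, all on the plus strand. Capitals mark the motif TTGGC or its reverse complement GCCAA.
EPHB2: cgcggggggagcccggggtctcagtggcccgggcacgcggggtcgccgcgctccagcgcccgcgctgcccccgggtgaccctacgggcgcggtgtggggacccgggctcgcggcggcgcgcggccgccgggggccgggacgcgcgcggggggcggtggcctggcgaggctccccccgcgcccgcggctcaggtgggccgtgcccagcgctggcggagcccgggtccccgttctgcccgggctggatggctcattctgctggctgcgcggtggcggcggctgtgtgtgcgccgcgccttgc
EFNB1: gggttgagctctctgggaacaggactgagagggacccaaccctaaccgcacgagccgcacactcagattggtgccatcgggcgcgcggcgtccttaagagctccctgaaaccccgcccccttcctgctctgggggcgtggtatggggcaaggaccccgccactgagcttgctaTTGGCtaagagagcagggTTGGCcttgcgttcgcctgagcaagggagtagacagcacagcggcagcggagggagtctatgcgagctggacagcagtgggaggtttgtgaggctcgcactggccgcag
DCC: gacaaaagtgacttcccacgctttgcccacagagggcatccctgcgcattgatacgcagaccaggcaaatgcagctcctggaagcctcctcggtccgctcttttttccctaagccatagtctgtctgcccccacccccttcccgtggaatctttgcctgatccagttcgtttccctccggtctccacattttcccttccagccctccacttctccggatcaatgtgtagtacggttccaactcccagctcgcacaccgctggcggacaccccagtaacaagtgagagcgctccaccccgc
SLIT2: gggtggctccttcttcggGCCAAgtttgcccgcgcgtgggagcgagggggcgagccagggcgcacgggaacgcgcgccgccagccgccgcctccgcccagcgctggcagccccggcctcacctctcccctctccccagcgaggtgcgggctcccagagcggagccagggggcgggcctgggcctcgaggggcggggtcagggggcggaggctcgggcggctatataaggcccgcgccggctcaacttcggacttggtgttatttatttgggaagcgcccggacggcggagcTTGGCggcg

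EFNB1 held 2 copies of TTGGC, which began 77 and 59 bases before the start. SLIT2 held GCCAA 232 bases before the start and TTGGC at base 42 after it, while EPHB2 and DCC held neither form in this window. Of the other called members with a RefSeq promoter, EFNA5 and SEMA3F held 1 copy each and SEMA3C held none. A single arm on either strand is common: it was in 46.1% of 27305 promoters of the same length and in 29 of 67 promoters of the set (43.3%). The full palindrome, TTGGC and GCCAA with 5 bases between them, was in 9 of all promoters (0.033%) and in 0 of the 67. G and C made up 83.0% of the EPHB2 promoter, 74.3% for SLIT2, 63.7% for EFNB1 and 58.0% for DCC. The medians were 64.3% in the set and 58.3% over all promoters. These matches describe the letters in this window, and enhancers or other starts were not searched.

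In hg19, the build of the counts, EPHB2 lies at chr1:23037332-23247993, EFNB1 at chrX:68048864-68062003, DCC at chr18:49866567-51062269 and SLIT2 at chr4:20253528-20622184, all on the plus strand in GENCODE lifted to this build. Counts were summed over their exons. None of these 4 genes shares exon bases there with another gene of the count file. Reads that fit several Eph receptors equally well may have been dropped or shared, since the sources used here do not say how such reads were treated.

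Among netrins and their receptors, the receptor DCC rose with NFIB WT while its ligand and its relatives did not pass the test. DCC, the receptor that mediates attraction to netrin-1, had 4.87 and 4.43 CPM with NFIB ΔIDR, 15.3 and 13.4 CPM with NFIB WT, and 7.10 and 6.21 CPM with EV. NFIB WT was highest and NFIB ΔIDR lowest, without overlap, on 36 and 30 counts with NFIB ΔIDR, 102 and 104 with NFIB WT, and 52 and 52 with EV. DCC was 2.15-fold higher with NFIB WT than with EV (log2FC 1.11, SE 0.17, adjusted p = 0.0236). It was lower with NFIB ΔIDR than with NFIB WT (log2FC -1.62, SE 0.19, adjusted p = 0.00115), and had a log2 fold change of -0.51 with NFIB ΔIDR against EV (SE 0.21, adjusted p = 0.289).

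NTN1, the secreted ligand of DCC, was present at 9.47 and 6.35 CPM with NFIB ΔIDR, 7.50 and 7.21 CPM with NFIB WT, and 7.10 and 8.13 CPM with EV, with overlapping groups. NTN3 had 1.18 to 2.03 CPM, and NTN4 had 0 to 12 counts and was not tested. NEO1, a relative of DCC that also binds repulsive guidance molecules, was the more abundant receptor at 46.0 and 43.0 CPM with NFIB ΔIDR, 35.7 and 40.3 CPM with NFIB WT, and 37.1 and 36.9 CPM with EV. Its NFIB ΔIDR libraries were the highest of the 6, and the log2 fold change against EV was 0.27 (SE 0.11, adjusted p = 0.282). The UNC5 receptors, which turn the response to netrin into repulsion, differed in level and gave no call in any comparison, and none in DESeq2. At an unadjusted p under 0.05, 1 of 4 was higher with NFIB WT than with EV (25%, next to 6.93% of all genes). UNC5B led at 26.6 to 31.7 CPM, while UNC5A stayed at 0.676 to 1.501 CPM and UNC5C at 1.91 to 3.25 CPM. UNC5D had 5.55 and 5.61 CPM with NFIB ΔIDR, 9.75 and 6.18 CPM with NFIB WT, and 4.50 and 3.35 CPM with EV. Both constructs lay above EV, and the log2 fold change with NFIB WT against EV was 1.01 (SE 0.27, adjusted p = 0.145). NTNG1, a membrane-anchored netrin-G that does not bind DCC, had 67.4 and 75.0 CPM with NFIB ΔIDR, 93.3 and 86.4 CPM with NFIB WT, and 75.5 and 76.7 CPM with EV. It was highest with NFIB WT, and its log2 fold change of NFIB ΔIDR against NFIB WT was -0.34 (SE 0.10, adjusted p = 0.0544).

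The ligand SLIT2 was higher with NFIB ΔIDR, the other direction from EPHB2, EFNB1 and DCC between the constructs. Its ROBO receptors gave no call in edgeR or DESeq2. At an unadjusted p under 0.05, 1 of 3 was higher with NFIB WT than with EV (33.3%, next to 6.93% of all genes). At the same threshold, 1 of 3 was lower with NFIB ΔIDR than with NFIB WT (33.3%, next to 13.9%). SLIT2, a secreted repellent, had 95.8 and 102 CPM with NFIB ΔIDR, 48.4 and 49.1 CPM with NFIB WT, and 65.5 and 65.2 CPM with EV. Libraries of a group were close and the 3 groups were separate, with NFIB ΔIDR highest and NFIB WT lowest. SLIT2 was 1.51-fold higher with NFIB ΔIDR than with EV (log2FC 0.60, SE 0.09, adjusted p = 0.0204) and 2.03-fold higher than with NFIB WT (log2FC 1.02, SE 0.09, adjusted p = 0.000433). With NFIB WT against EV the log2 fold change was -0.42 (SE 0.10, adjusted p = 0.0830). SLIT1 and SLIT3 had 3 to 7 and 0 to 3 counts in a library and were not tested, so SLIT2 gave nearly all SLIT reads in these cells.

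ROBO1, the main SLIT receptor by level, had 114 and 107 CPM with NFIB ΔIDR, 113 and 119.9 CPM with NFIB WT, and 121 and 122 CPM with EV. Its log2 fold changes were -0.13 (SE 0.09) with NFIB ΔIDR and -0.06 (SE 0.09) with NFIB WT against EV. ROBO2 had 22.3 and 26.3 CPM with NFIB ΔIDR, 29.5 and 31.4 CPM with NFIB WT, and 25.5 and 24.97 CPM with EV, highest with NFIB WT (log2FC against EV 0.27, SE 0.12, adjusted p = 0.366). ROBO3, which regulates midline crossing, had 1.03 to 1.95 CPM, and the endothelial ROBO4 had at most 1 count in a library.

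Class 3 semaphorins, secreted ligands that bind neuropilins and plexins, differed between the constructs in both directions. SEMA3A, which collapses growth cones, had 5.82 and 5.02 CPM with NFIB ΔIDR, 2.25 and 1.67 CPM with NFIB WT, and 2.73 and 3.47 CPM with EV. The groups did not overlap, and SEMA3A was 2.78-fold higher with NFIB ΔIDR than with NFIB WT (log2FC 1.48, SE 0.29, adjusted p = 0.0116). Against EV, the log2 fold change was 0.80 with NFIB ΔIDR (SE 0.26, adjusted p = 0.185) and -0.68 with NFIB WT (SE 0.32, adjusted p = 0.390). SEMA3C, the most abundant semaphorin here, had 141 and 145 CPM with NFIB ΔIDR, 109 and 91.4 CPM with NFIB WT, and 134 and 131 CPM with EV. NFIB WT stood below the other groups, and SEMA3C was 1.43-fold higher with NFIB ΔIDR than with NFIB WT (log2FC 0.51, SE 0.10, adjusted p = 0.0116). Its log2 fold change with NFIB WT against EV was -0.41 (SE 0.10, adjusted p = 0.115).

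SEMA3F, which acts through NRP2, went the opposite way. It had 2.71 and 1.48 CPM with NFIB ΔIDR, 6.30 and 4.12 CPM with NFIB WT, and 2.59 and 2.87 CPM with EV, with NFIB WT above the other groups. SEMA3F was lower with NFIB ΔIDR than with NFIB WT (log2FC -1.28, SE 0.34, adjusted p = 0.0396). This call rests on 20 and 10 counts with NFIB ΔIDR against 42 and 32 with NFIB WT, and it was lost in DESeq2, in a fit of these groups alone and on leaving out NFIB WT replicate 1, either NFIB ΔIDR library or either EV library. In GENCODE, SEMA3F shares 110 exon bases with SEMA3F-AS1 on the opposite strand, and the sources used here do not say whether the counting used strand. SEMA3F-AS1 had 2.300 and 1.77 CPM with NFIB ΔIDR, 1.65 and 1.03 CPM with NFIB WT, and 2.05 and 2.03 CPM with EV. It also shares 801 exon bases with RBM5 on the opposite strand, so its counts may hold reads of RBM5.

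SEMA3A, SEMA3C, SEMA3D and SEMA3E lie on chromosome 7 of hg19 between 80371854 and 84816372, and SEMA3F lies on chromosome 3. SEMA3D had 5.28 and 6.05 CPM with NFIB ΔIDR, 5.25 and 3.48 CPM with NFIB WT, and 3.55 and 4.18 CPM with EV (log2FC of NFIB ΔIDR against NFIB WT 0.39, SE 0.26, adjusted p = 0.363). SEMA3E, which binds PLXND1 without a neuropilin, had 3 and 13 counts with NFIB ΔIDR, 5 and 11 with NFIB WT, and 4 and 4 with EV. None of 4 tested receptors of this class passed in any comparison in edgeR or DESeq2. At an unadjusted p under 0.05, 1 of 4, PLXNA1, was lower with NFIB ΔIDR than with EV (25%, next to 7.42% of all genes). PLXNA1 alone was also lower than with NFIB WT (25%, next to 13.9%). NRP1, the binding subunit for SEMA3A, had 21.1 and 23.3 CPM with NFIB ΔIDR, 24.4 and 22.2 CPM with NFIB WT, and 23.9 and 23.1 CPM with EV, with overlapping groups. PLXNA1, a signalling partner of neuropilins, had 74.4 and 79.9 CPM with NFIB ΔIDR, 88.8 and 102 CPM with NFIB WT, and 89.5 and 97.4 CPM with EV. It was lowest with NFIB ΔIDR, and the log2 fold change against NFIB WT was -0.31 (SE 0.11, adjusted p = 0.0857). PLXND1 lay between 83.5 and 94.0 CPM and PLXNA3 between 11.1 and 15.1 CPM in all libraries. PLXNA2 and PLXNA4 had at most 3 counts in a library.

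Among ephrin-A ligands, which are held to the membrane by a lipid anchor, EFNA5 was the gene that passed. It had 11.6 and 9.60 CPM with NFIB ΔIDR, 16.0 and 18.2 CPM with NFIB WT, and 16.5 and 17.6 CPM with EV. The NFIB ΔIDR libraries were below all others, and those of NFIB WT and EV overlapped. EFNA5 was lower with NFIB ΔIDR than with NFIB WT (log2FC -0.69, SE 0.16, adjusted p = 0.0220), and the log2 fold change against EV was -0.68 with NFIB ΔIDR (SE 0.16, adjusted p = 0.0833) and 0.01 with NFIB WT (SE 0.14, adjusted p = 0.988). EFNA1 had 8.52 and 9.30 CPM with NFIB ΔIDR, 9.15 and 8.89 CPM with NFIB WT, and 13.6 and 12.1 CPM with EV, so both constructs were below EV (log2FC -0.53, SE 0.16 and adjusted p = 0.162 with NFIB ΔIDR, and -0.51, SE 0.16 and adjusted p = 0.216 with NFIB WT). EFNA3 and EFNA4 stayed at 4.72 to 6.75 CPM.

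Of 9 EphA receptors, 5 were tested and none was called by edgeR or DESeq2 in the 3 comparisons. At an unadjusted p under 0.05, 1 was lower with each construct than with EV (20%). Over all genes, 7.42% were lower with NFIB ΔIDR and 6.42% with NFIB WT. Between the constructs, 1 was higher with NFIB ΔIDR (20%, next to 13.6% of all genes) and 1 was lower (20%, next to 13.9%). EPHA4, the receptor that binds ephrins of both classes, came nearest to a call, with NFIB WT against EV. It had 137 and 143 CPM with NFIB ΔIDR, 115 and 119 CPM with NFIB WT, and 160.2 and 155 CPM with EV. The groups were separate, with NFIB WT lowest and EV highest, and the log2 fold change with NFIB WT against EV was -0.43 (SE 0.09, adjusted p = 0.0590). EPHA4 passed as lower with NFIB WT than with EV without the filter on low counts (adjusted p = 0.00647) and without NFIB WT replicate 1 or 2 (adjusted p = 0.00013 and 3.29e-06), and not without either EV library (adjusted p up to 0.584). EPHA3 had 209.8 and 190.4 CPM with NFIB ΔIDR, 219 and 180.3 CPM with NFIB WT, and 232 and 216 CPM with EV. EPHA7 ranged from 49.1 to 65.1 CPM. EPHA2 had 13.4 and 12.8 CPM with NFIB ΔIDR, 16.6 and 18.7 CPM with NFIB WT, and 14.9 and 16.0 CPM with EV, without overlap. Its log2 fold change of NFIB ΔIDR against NFIB WT was -0.43 (SE 0.14, adjusted p = 0.0794). EPHA5 had 5.55 and 5.61 CPM with NFIB ΔIDR, 8.40 and 6.57 CPM with NFIB WT, and 9.28 and 7.53 CPM with EV, lowest with NFIB ΔIDR (log2FC against EV -0.58, SE 0.21, adjusted p = 0.232).

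The membrane-bound semaphorins and the plexins that serve them gave no call among 13 tested, in edgeR or DESeq2. At an unadjusted p under 0.05, 1 was lower with each construct than with EV (7.69%). Over all genes, 7.42% were lower with NFIB ΔIDR and 6.42% with NFIB WT. Between the constructs, 1 was higher with NFIB ΔIDR (7.69%, next to 13.6% of all genes) and 2 were lower (15.4%, next to 13.9%). SEMA4D, the ligand of PLXNB1, was the most abundant class 4 member at 21.1 and 20.7 CPM with NFIB ΔIDR, 21.6 and 20.9 CPM with NFIB WT, and 24.7 and 23.5 CPM with EV. PLXNB1 itself had 4.30 to 6.96 CPM. SEMA4C, a ligand of PLXNB2, had 6.90 and 7.68 CPM with NFIB ΔIDR, 13.2 and 9.14 CPM with NFIB WT, and 6.82 and 9.56 CPM with EV (log2FC of NFIB ΔIDR against NFIB WT -0.60, SE 0.23, adjusted p = 0.127). PLXNB2 was the leading B plexin at 74.4 to 91.4 CPM. SEMA4F had 2.84 and 1.92 CPM with NFIB ΔIDR, 5.70 and 2.96 CPM with NFIB WT, and 3.003 and 2.63 CPM with EV, where NFIB WT replicate 1 alone was high. SEMA5B had 74.4 and 85.8 CPM with NFIB ΔIDR, 78.0 and 78.2 CPM with NFIB WT, and 89.0 and 92.7 CPM with EV, while its relative SEMA5A had 1 count in all. SEMA6A, a ligand of A plexins, had 27.6 and 32.5 CPM with NFIB ΔIDR, 22.5 and 23.4 CPM with NFIB WT, and 35.5 and 29.5 CPM with EV. It was lowest with NFIB WT (log2FC against EV -0.50, SE 0.14, adjusted p = 0.158). SEMA6A-AS1, which shares 268 exon bases with it, had 3.38 and 2.36 CPM with NFIB ΔIDR, 1.65 and 2.189 CPM with NFIB WT, and 3.41 and 3.58 CPM with EV, and was also lowest with NFIB WT. SEMA6D had 4.74 and 3.54 CPM with NFIB ΔIDR, 5.40 and 5.28 CPM with NFIB WT, and 7.10 and 5.86 CPM with EV. SEMA7A had 0 to 2 counts in a library, although its receptor PLXNC1 was present at 8.71 to 13.5 CPM.

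The 24 members outside the test had at most 13 counts in any library. They were EPHA1, EPHA6, EPHA8, EPHA10, EPHB6, EFNA2, SEMA3B, SEMA3G, SEMA4A, SEMA5A, SEMA6B, SEMA7A, NRP2, PLXNA2, PLXNA4, SLIT1, SLIT3, ROBO4, NTN4, NTNG2, UNC5CL and the antisense transcripts of EPHA1, EPHA5 and UNC5B. UNC50, which is not a guidance receptor, had 26.7 and 23.8 CPM with NFIB ΔIDR, 33.3 and 27.2 CPM with NFIB WT, and 24.02 and 21.4 CPM with EV.

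Of 70 genes on 4 lists that work with these ligands and receptors inside or beside the membrane, 58 were tested, and none was called against EV in edgeR's test. At an unadjusted p under 0.05, 1 was higher (1.72%, next to 7.77% of all genes) and 9 were lower (15.5%, next to 7.42%) with NFIB ΔIDR. With NFIB WT, 5 were higher (8.62%, next to 6.93%) and 5 lower (8.62%, next to 6.42%). DESeq2 called 2 with NFIB ΔIDR (DPYSL3 and DPYSL5, both lower) and 0 with NFIB WT. Of all genes with an adjusted p in DESeq2, 0.59% were lower with NFIB ΔIDR. How many of the 58 had such a p was not counted. Between the constructs, 6 of the 58 passed in either direction (10.3%, next to 10.7% of all genes), a share near the background, of which 4 were among 15 other ligands, coreceptors and proteases. FLRT3, a membrane protein that binds UNC5 receptors, was higher with NFIB ΔIDR, at 82.7 and 82.1 CPM against 58.0 and 56.2 CPM with NFIB WT (log2FC 0.53, adjusted p = 0.00697), next to 77.9 and 74.2 CPM with EV. Its relative FLRT2 was lower with NFIB ΔIDR, at 355 and 358 CPM against 504 and 455 CPM with NFIB WT (log2FC -0.43, adjusted p = 0.0102). CDON, a coreceptor for hedgehog proteins, and LINGO1, a coreceptor of the Nogo receptor, were lower too (log2FC -0.55 and adjusted p = 0.0130 for CDON, -0.55 and 0.0205 for LINGO1). None of 16 kinases and adaptors was called between the constructs in edgeR or DESeq2. An unadjusted p under 0.05 was reached by 3, all higher with NFIB ΔIDR (18.8%, next to 13.6% of all genes). Of 17 GTPases and their regulators, CDC42 was lower with NFIB ΔIDR (log2FC -0.31, adjusted p = 0.0461), and of 10 cytoskeletal effectors DPYSL3, a collapsin response mediator protein, was lower, at 131 and 120.5 CPM against 183 and 192 CPM with NFIB WT (log2FC -0.58, adjusted p = 0.00435). The calls of CDC42 and LINGO1 were lost in DESeq2.

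The calls against EV depended on the libraries fitted. None of EPHB2, EFNB1 and DCC passed in a fit of NFIB WT and EV alone, without EV replicate 1 or 2, or without NFIB ΔIDR replicate 1 or 2, where no member was higher and at most 10 of all genes were, and DCC also failed in DESeq2 (adjusted p over the alternatives up to 0.252 for EPHB2, 0.281 for EFNB1 and 0.332 for DCC). Without NFIB WT replicate 2, 9 members were higher (15.5%, next to 10.9% of all genes) and 7 lower (12.1%, next to 11.0%) than with EV. Without NFIB WT replicate 1, 3 were higher (5.26%, next to 2.11%) and 6 lower (10.5%, next to 1.57%). SLIT2 with NFIB ΔIDR against EV failed without either NFIB ΔIDR library or either EV library (adjusted p up to 0.392). Between the constructs, EPHB2, EFNB1, DCC and SLIT2 passed under each of 14 alternatives, with adjusted p of at most 0.0357, whereas SEMA3A, SEMA3C and EFNA5 failed without either NFIB ΔIDR library. SEMA3A and EFNA5 also failed in DESeq2, and EFNA5 in a fit of these groups alone.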

How the data were processed

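RNA-seq libraries of 6 SKNMC populations were analysed. Per the labels and the methods, the authors converted reads with CASAVA 2.19, aligned them to hg19 with STAR 2.4.0h and deposited whole-number counts per RefSeq gene from featureCounts, without normalization. The CORALL kit marks strand and adds molecular identifiers, but the sources used here do not say whether the counting used them. Library totals were 6664231 to 8465572.

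Members were taken by gene name. They and the lists were chosen with earlier results of these data known. Genes passing filterByExpr of edgeR 4.0.16 (minimum count 10, minimum total 15, in R 4.3.3) were TMM-scaled and tested by the quasi-likelihood F test over all 13501 genes, with a mean per group, all 6 libraries in 1 fit and Benjamini-Hochberg adjustment. SE is the log2 fold change over the root of F. Alternatives were DESeq2 1.42.0, its size factors, no filter, fits of 2 groups, a replicate block, robust estimation, looser thresholds and omission of single libraries. Named genes were the 4 markers of the set, every called member, the most abundant of each family, known partners and other called guidance genes. Fits were tested on simulated data. The methods describe biological duplicates, but nothing shows separate infections, so p values measure the spread between these libraries, which may be technical. Gene positions came from GENCODE lifted to hg19 and promoters from RefSeq (67 of 78 members matched). Figures were drawn with matplotlib 3.10.9. Protein sequences were not used here.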

Additional observations from a re-analysis of the deposited data

How the results depend on the processing

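Numbers of called members moved with the fit, and the cause was not tested. With NFIB WT against EV, 3 higher and 0 lower members became 0 higher in a fit of these groups alone, next to 0.0758% of all genes. Without the filter on low counts, 5 were lower (6.41% of members, next to 1.15% of all genes). At an unadjusted p under 0.05 and a fold of 1.5, 5 were higher (9.26%, next to 2.13%) and 2 lower (3.70%, next to 1.75%). With NFIB ΔIDR against EV, 1 higher and 0 lower became 3 (5.77% of members, next to 6.85% of all genes) and 6 (11.5%, next to 7.32%) with these groups alone. Without the filter, 1 was lower (1.28%, next to 1.21%). The unadjusted thresholds gave 2 higher (3.70%, next to 3.09%) and 2 lower (3.70%, next to 1.68%). DESeq2 at those thresholds, an alternative chosen after seeing the data, gave 1 lower in each comparison with EV (1.28% of members). Over all genes it gave 0.465% lower with NFIB WT and 0.535% with NFIB ΔIDR. With NFIB ΔIDR against NFIB WT, 3 higher and 5 lower became 5 (6.41%, next to 4.94% of all genes) and 8 without the filter, where 1164 of all genes were lower. DESeq2 gave 3 lower (5.88%, next to 3.21%). A fit of these groups alone gave 3 lower, with 358 lower among all genes. When 1 library was left out, the fits that called the most members also called the most genes. The ranges that follow are therefore not specific to the members. Leaving out 1 library at a time gave 0 to 9 higher and 0 to 7 lower with NFIB WT against EV, 0 to 4 and 0 to 6 with NFIB ΔIDR against EV, and 1 to 10 and 3 to 11 between the constructs.

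Deviations of same-numbered libraries correlated at 0.05, 0.02 and 0.15 across genes, and the main fit held no replicate term. With a replicate block, 1 member (EPHA4) was lower with NFIB WT than with EV. Between the constructs, 8 rather than 5 were lower with NFIB ΔIDR, while the other counts of members did not change. Over all genes the block raised every count. Higher genes went from 61 to 126 and lower genes from 22 to 62 with NFIB WT against EV. With NFIB ΔIDR against EV they went from 40 to 120 and from 48 to 121. Between the constructs they went from 701 to 1048 and from 745 to 1044. Among the values of 9 named members under the alternatives, 305 kept direction and side of the threshold, 38 lost the call, 27 gained it and 2 changed sign. Both changes of sign were EFNA5 with NFIB WT against EV, with a log2 fold change of 0.00763 in all libraries, -0.0303 without EV replicate 1 and a range of -0.0848 (without NFIB WT replicate 2) to 0.0904 (without NFIB WT replicate 1). Scaling by DESeq2 size factors moved the median of all genes by no more than 0.0012 on the log2 scale. The 24 untested members had too few counts for the filter.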

Other observations

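Among the 24 members outside the filter, 3 reached 9 or more counts with NFIB ΔIDR and are given here, chosen after their values were seen. NRP2, the neuropilin that binds SEMA3F, had 13 and 9 counts with NFIB ΔIDR, 1 and 3 with NFIB WT, and 6 and 3 with EV. It was just outside the filter. In edgeR without a filter, the log2 fold change of NRP2 with NFIB ΔIDR against NFIB WT was 2.41 (SE 0.71, adjusted p = 0.0106). Against EV it was 1.40 (SE 0.59, adjusted p = 0.254). Since these 3 genes were picked for their counts with NFIB ΔIDR, such p values do not test whether they were higher there. EPHA1-AS1 had 13 and 3 counts with NFIB ΔIDR, 0 and 0 with NFIB WT, and 1 and 1 with EV, most of them in a single library. It also passed between the constructs in the edgeR fit without a filter (adjusted p = 0.00212). NTN4, a laminin-binding netrin, had 7 and 12 counts with NFIB ΔIDR, 0 and 5 with NFIB WT, and 4 and 9 with EV, which overlaps NFIB ΔIDR. Others ran the other way, such as EPHB6 with 0 and 1 counts with NFIB ΔIDR, 5 and 4 with NFIB WT, and 1 and 0 with EV. SEMA6B had 5 and 5 counts with NFIB ΔIDR, 10 and 7 with NFIB WT, and 5 and 4 with EV. NTNG2 had 0 and 1 counts with NFIB ΔIDR, 0 and 5 with NFIB WT, which overlaps NFIB ΔIDR, and 2 and 3 with EV. The number of genes with at least 1 count was 19591 and 19126 with NFIB ΔIDR, 18562 and 18632 with NFIB WT, and 18740 and 18703 with EV, and its part in these low counts was not tested.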
